A study of Mus musculus with 48 samples.

Results

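The 16 arrays described here measured mouse hippocampus in the arms labelled FC (8 arrays) and CS (8 arrays), out of 48 arrays of hippocampus and amygdala. They were chosen by tissue and by the first letters of the array titles. The arm codes are not explained in the labels. Given a series title on associative and nonassociative learning, FC was read as fear conditioning, CS as exposure to the conditioned stimulus alone and NH, the arm of 10 further hippocampus arrays, as naive mice kept in the home cage. No strain, sex, age, shock, stimulus or interval before tissue collection was given in the labels, and no sentence there says that the arrays of an arm came from separate mice, so that p-values measure only the spread among these arrays, which may be technical. Each array is an Affymetrix oligonucleotide chip hybridised with biotinylated cRNA, and its values were deposited as linear intensity. All levels below are the log2 of that intensity, and all differences are FC minus CS on the log2 scale with the processing batch named in the labels as a block, unless another comparison is named.

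In fear conditioning a neutral stimulus or place is paired with an aversive one, and the hippocampus is known for its part in learning the place. Neuronal firing and calcium entry switch on immediate early genes, among them transcription factors such as Fos, Egr1 and Nr4a1 and phosphatases such as Dusp1, within minutes and without new protein synthesis. A stimulus or an unfamiliar place alone also switches on such genes, so FC against CS asks for the part beyond exposure to the stimulus. No arm was read as the aversive stimulus alone, so the pairing and the aversive stimulus itself cannot be told apart here.

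The batches held the arms unequally. Batch 4 held 3 CS and 2 FC arrays, batch 5 held 4 of each, and batch 6 held 1 CS and 2 FC arrays. Levels differed between these batches at 2334 of 12422 probe sets (18.8%) at an adjusted p below 0.05. Between pairs of the 16 arrays r over all probe sets lay between 0.982 and 0.999. CS 105 and CS 109, both of batch 4, stood apart at a group of neuronal transcripts described further on. Several of the named genes whose difference moves far without them are given both ways. Array number limits the precision: the median half-width of a 95% interval was 0.117 on the log2 scale. As a check of the labelled tissue, markers were ranked by mean level, although the rank of a probe set also depends on its probes. Of markers of hippocampal neurons, Neurod2 lay at the 95.1 percentile of all probe sets, Wfs1 at 89.3, Calb1 at 87.7 and Neurod6 at 83.4. The dentate gyrus marker Prox1 lay at 39.1. Of markers of neighbouring regions, the striatal genes Rgs9 and Drd2 lay at 10.7 and 38.1, whereas Tcf7l2 and Prkcd, abundant in thalamus, lay at 86.9 and 84.4, as high as Calb1 and Neurod6, so these ranks do not settle the tissue. In bulk tissue fewer cells of a type and less RNA per cell cannot be told apart.

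No transcript differed between FC and CS hippocampus in the limma fit with Benjamini-Hochberg adjustment over all 12422 probe sets: 0 (0%) were called, and the smallest adjusted p was 0.9999. An unadjusted p below 0.05 was found at 175 probe sets (1.41%), 114 higher in FC (0.918%) and 61 lower (0.491%). If no probe set differed, 621.1 would be the expectation, and correlation between probe sets makes such a count vary widely around it. The cause of the shortfall was not tested. The intervals were narrow as well as centred near 0. At 12408 probe sets (99.9%) the whole 95% interval lay inside a 1.5-fold difference in either direction, and at 12162 (97.9%) inside a 1.25-fold difference, a limit chosen after seeing the data. These counts include faint probe sets, at which a narrow interval of intensity need not bound the change in transcript. The largest fitted difference of any probe set was 0.401. With CS 105 and CS 109 left out together, 0 probe sets were called, 171 had an unadjusted p below 0.05 and 99.968% had intervals inside 1.5-fold.

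The activity genes give the most direct reading, because they can be set against the NH arrays measured the same way. The limma fit of all 26 hippocampus arrays called 1 probe set (0.00805%) in FC minus NH and 1 (0.00805%) in CS minus NH, and in each case it was Fos. Its protein pairs with Jun proteins to form the transcription factor AP-1. In FC its level had a lowest value of 6.66, a median of 6.79 and a highest of 6.91. In CS the lowest value was 6.54, the median 6.61 and the highest 7.03. In NH the lowest was 4.85, the median 5.43 and the highest 6.12. All 8 FC and all 8 CS arrays therefore lay above every NH array. Of the CS arrays 6 of 8 lay below the lowest FC array, and CS 109 and CS 39 lay within or above the FC range. The FC minus NH difference was 1.09 ± 0.145 (SE), 2.12-fold (adjusted p = 5.21e-04), and the CS minus NH difference was 0.98 ± 0.147, 1.97-fold (adjusted p = 0.00442). These comparisons share the NH arrays, rest on the 4 NH arrays in batches 4 and 6, whose Fos levels ran from 5.26 to 6.12, and the second is lost without NH 100 (adjusted p = 0.142) or NH 78 (adjusted p = 0.0537).

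Between FC and CS the Fos difference was 0.11 ± 0.066 (95% interval -0.03 to 0.25), with an exact within-batch permutation p of 0.145 (two-sided, 2100 arrangements). The difference was 0.17 in batch 4, 0.03 in batch 5 and 0.25 in batch 6. CS 39, of batch 5, had the highest Fos level of all 16 arrays. A second Fos probe set, with levels from 4.62 to 5.39, gave 0.07 ± 0.089 and did not separate either arm from NH.

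**Figure D1:**
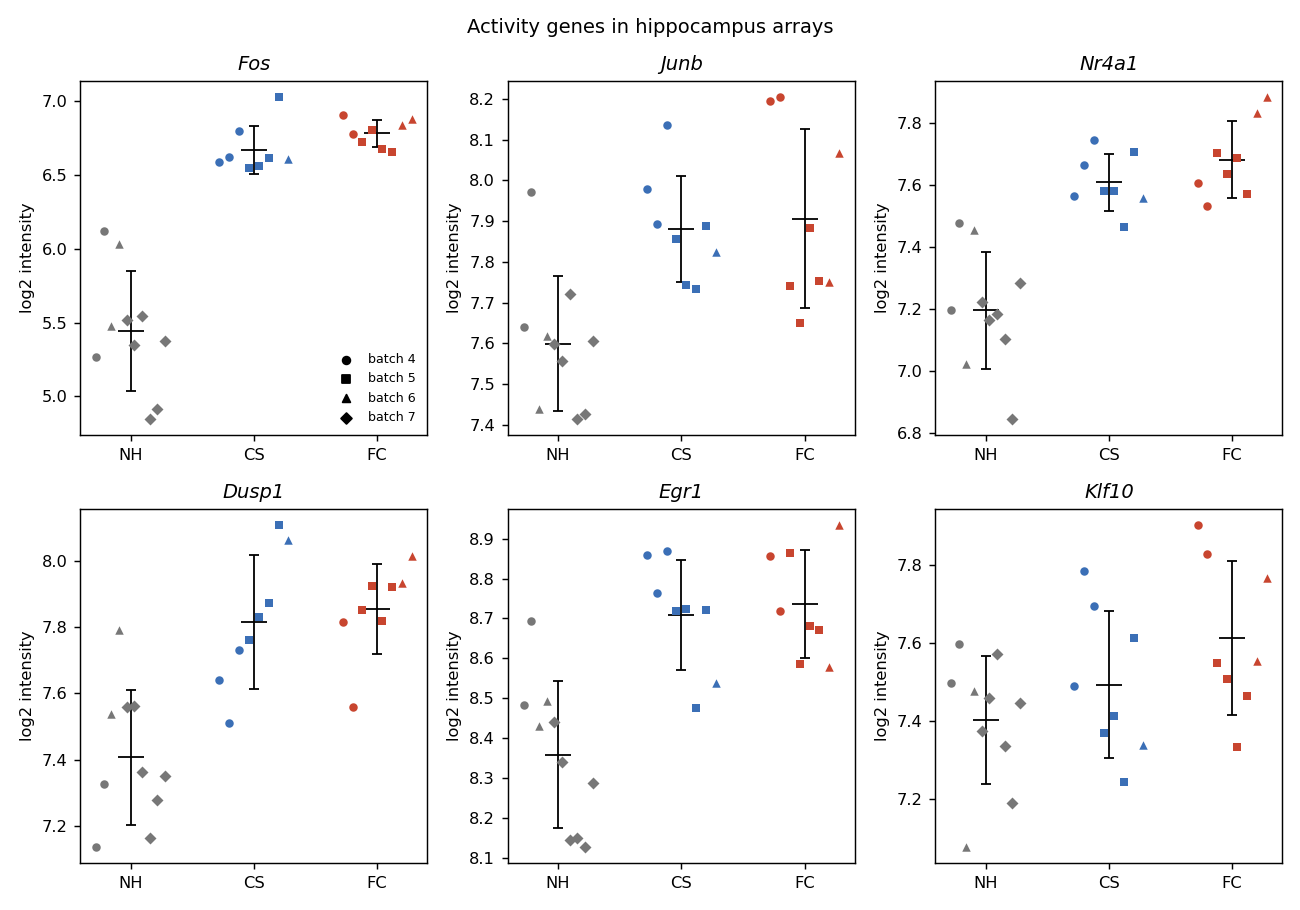
Log2 intensity of 6 activity genes (brightest probe set of each) in every hippocampus array of the arms NH, CS and FC. Marker shape gives the processing batch, and black bars give the mean ± SD of an arm. For Fos every CS and FC array lies above every NH array, while the CS and FC ranges overlap for all 6 genes.

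The bases just upstream of the start sites of Fos, Junb, Nr4a1 and Dusp1 are shown because these genes had the 4 largest fitted differences from NH of the 24 activity genes in each arm, and the FC and CS ranges overlapped. They are the 250 bases before the gene start in RefSeq (build GRCm38.p6), 5′ to 3′ on the gene's own strand. Capitals mark matches to TGACG, the core of the cAMP response element to which CREB binds, on either strand (its reverse reads CGTCA), and the full palindrome TGACGTCA where it occurs. Fos is at chr12:85473640-85473889 on the plus strand, Junb at chr8:84978749-84978998 on the minus strand, Nr4a1 at chr15:101266596-101266845 on the plus strand and Dusp1 at chr17:26508473-26508722 on the minus strand.
Fos: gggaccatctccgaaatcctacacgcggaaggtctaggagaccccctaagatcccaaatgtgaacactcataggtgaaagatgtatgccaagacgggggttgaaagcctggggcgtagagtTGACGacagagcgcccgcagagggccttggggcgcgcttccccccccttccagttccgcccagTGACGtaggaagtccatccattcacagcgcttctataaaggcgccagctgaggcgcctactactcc
Junb: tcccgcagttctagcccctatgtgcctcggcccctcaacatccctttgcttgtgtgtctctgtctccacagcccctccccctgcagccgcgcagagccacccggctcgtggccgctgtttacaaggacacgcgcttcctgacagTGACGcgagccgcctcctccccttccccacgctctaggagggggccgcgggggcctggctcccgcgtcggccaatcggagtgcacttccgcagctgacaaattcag
Nr4a1: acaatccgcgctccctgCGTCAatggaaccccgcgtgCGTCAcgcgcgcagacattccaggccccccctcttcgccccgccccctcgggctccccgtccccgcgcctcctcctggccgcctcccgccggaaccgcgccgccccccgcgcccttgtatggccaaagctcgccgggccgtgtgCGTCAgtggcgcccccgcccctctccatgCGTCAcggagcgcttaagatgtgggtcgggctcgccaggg
Dusp1: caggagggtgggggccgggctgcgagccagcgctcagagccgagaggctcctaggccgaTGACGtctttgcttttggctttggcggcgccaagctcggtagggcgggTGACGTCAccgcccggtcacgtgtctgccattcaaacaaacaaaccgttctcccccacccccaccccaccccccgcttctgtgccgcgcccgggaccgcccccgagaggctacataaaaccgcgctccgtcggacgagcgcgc
Fos held 2 matches, with first bases 129 and 66 bases before the start, Junb held 1 at 106, and Nr4a1 held 4, at 233, 213, 69 and 40. Dusp1 held 3, at 191, 143 and 140, and those at 143 and 140 overlap within 1 full palindrome. TGACG was found in 17.8% of 32841 promoter windows of this length and TGACGTCA in 1.55%. An exact match to the CArG box, the motif of serum response factor, was found in 1.47% and in none of these 4 windows. Bases farther upstream and inexact matches were not searched, so these genes may hold such a motif elsewhere. A match describes letters and not a bound site.

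Other transcription factors of the immediate early class lay closer to NH than Fos did. Nr4a1, an orphan nuclear receptor, had levels in FC from 7.53 to 7.88 (median 7.66), in CS from 7.46 to 7.75 (median 7.58) and in NH from 6.84 to 7.48 (median 7.19). All 8 FC arrays and 7 of the 8 CS arrays lay above every NH array. The fitted difference from NH was 0.43 ± 0.090 in FC and 0.36 ± 0.091 in CS, and neither passed adjustment over all probe sets (adjusted p = 0.329 and 1.00). FC minus CS was 0.06 ± 0.053 (exact permutation p = 0.301), with -0.09 in batch 4, 0.07 in batch 5 and 0.30 in batch 6, and it was 0.10 ± 0.053 without CS 105 and CS 109. Its relative Nr4a2 gave 0.01 ± 0.074 and 0.01 ± 0.056 on its 2 probe sets.

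Junb, an AP-1 partner of Fos, had levels from 7.65 to 8.20 in FC, 7.73 to 8.13 in CS and 7.41 to 7.97 in NH. The FC arrays were split: FC 89 and FC 113 of batch 4 and FC 79 of batch 6 were at 8.07 or above. The other 5, among them all FC arrays of batch 5, were at 7.88 or below. CS 109, the highest CS array, was of batch 4 too, so the split went largely with the batch. FC minus CS was 0.05 ± 0.059 (exact permutation p = 0.416), and 0.04 ± 0.054 on the second probe set. Egr1, a zinc-finger factor widely used as a marker of recent activity, had a median of 8.70 in FC and 8.72 in CS, against 8.39 in NH. Its difference was 0.04 ± 0.062 (exact permutation p = 0.514). A dimmer Egr1 probe set gave 0.12 ± 0.069 with no separation from NH, so the probe sets of this gene did not behave alike. Egr2 differed by 0.01 ± 0.053 and Fosb by -0.02 ± 0.046, with a 95% interval for Fosb from -0.12 to 0.08.

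The members of the group with the smallest unadjusted p-values pointed in opposite directions. Klf10, a TGF-beta-inducible zinc-finger factor, had a median of 7.55 in FC and 7.45 in CS. FC minus CS was 0.15 ± 0.063 on each of its 2 probe sets (unadjusted p = 0.030 and 0.031 from limma, adjusted p = 0.9999), higher in FC in each batch, with 0.21, 0.05 and 0.32 in batches 4, 5 and 6 on the brighter one. The 3 highest arrays, FC 89 at 7.90, FC 113 at 7.83 and CS 105 at 7.78, were all of batch 4, and the arms overlapped over most of their range. Jund, an AP-1 subunit that is present in resting cells, ran from 10.92 to 11.23 in FC and from 11.10 to 11.41 in CS. Its difference was -0.12 ± 0.056 (unadjusted p = 0.037, adjusted p = 0.9999), below 0 in each batch. Jun gave -0.07 ± 0.050.

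The phosphatases, growth-arrest genes and kinases of the group lay close to 0. Dusp1, which removes the activating phosphates of MAP kinases, had levels in FC from 7.56 to 8.02 (median 7.89), in CS from 7.51 to 8.11 (median 7.80) and in NH from 7.14 to 7.79 (median 7.36). FC minus CS was -0.01 ± 0.056, with a 95% interval from -0.12 to 0.11. Dusp6, the ERK phosphatase, gave 0.06 ± 0.070 and 0.12 ± 0.080 on its 2 probe sets. Btg2, which slows proliferation, gave 0.01 ± 0.041, the narrowest interval of the group, and Plk2, a kinase induced at active synapses, gave 0.04 ± 0.065. Gadd45b gave -0.07 ± 0.061 and 0.10 ± 0.060 on 2 probe sets of opposite sign, Gadd45g 0.02 ± 0.058, and Ier2 0.07 ± 0.072, which was 0.14 ± 0.054 without CS 105 and CS 109. Homer1, a scaffold of the postsynaptic density, gave 0.06 ± 0.064 and 0.04 ± 0.065, and 0.003 ± 0.061 and -0.01 ± 0.062 without those arrays. These probe sets do not say which Homer1 transcript form they measure. Bdnf, the neurotrophin most studied in fear memory, had a median of 9.05 in FC, 9.15 in CS, and a difference of -0.04 ± 0.067.

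Genes that respond to glucocorticoids, the stress hormones of the adrenal cortex, were near 0 too. Fkbp5, a chaperone of the glucocorticoid receptor, gave -0.01 ± 0.053, with medians of 7.97 in FC, 7.96 in CS and 7.95 in NH. Tsc22d3 gave 0.03 ± 0.051, Per1, which is also a clock gene, 0.02 ± 0.069, and the cell-cycle inhibitor Cdkn1a 0.02 ± 0.044 and 0.00 ± 0.052. Sgk1, a kinase that is induced by both glucocorticoids and activity, was the least even. It ran from 7.21 to 7.91 in FC and from 7.09 to 7.84 in CS, and its difference of 0.08 ± 0.107 was made of -0.04 in batch 4, -0.04 in batch 5 and 0.66 in batch 6, where the single CS array, CS 75, was the lowest of all 16.

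Over the 33 probe sets of these 24 genes, 25 were higher and 8 lower in FC, with a median difference of 0.04 against 0.003 over all probe sets. None (0%) was called, and 3 (9.09%) had an unadjusted p below 0.05, both probe sets of Klf10 and that of Jund, against 1.41% of all probe sets. The FC and CS ranges overlapped at all 33. The sign was the same in all 3 batches at 7 of them, higher in FC at 4 and lower at 3. All 33 intervals lay inside a 1.25-fold difference in either direction, from -0.24 at their lowest end (Jund) to 0.31 at their highest (Sgk1). With respect to NH, 20 of the 24 genes had a higher fitted level in FC and 21 in CS on the brightest probe set.

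**Figure D2:**
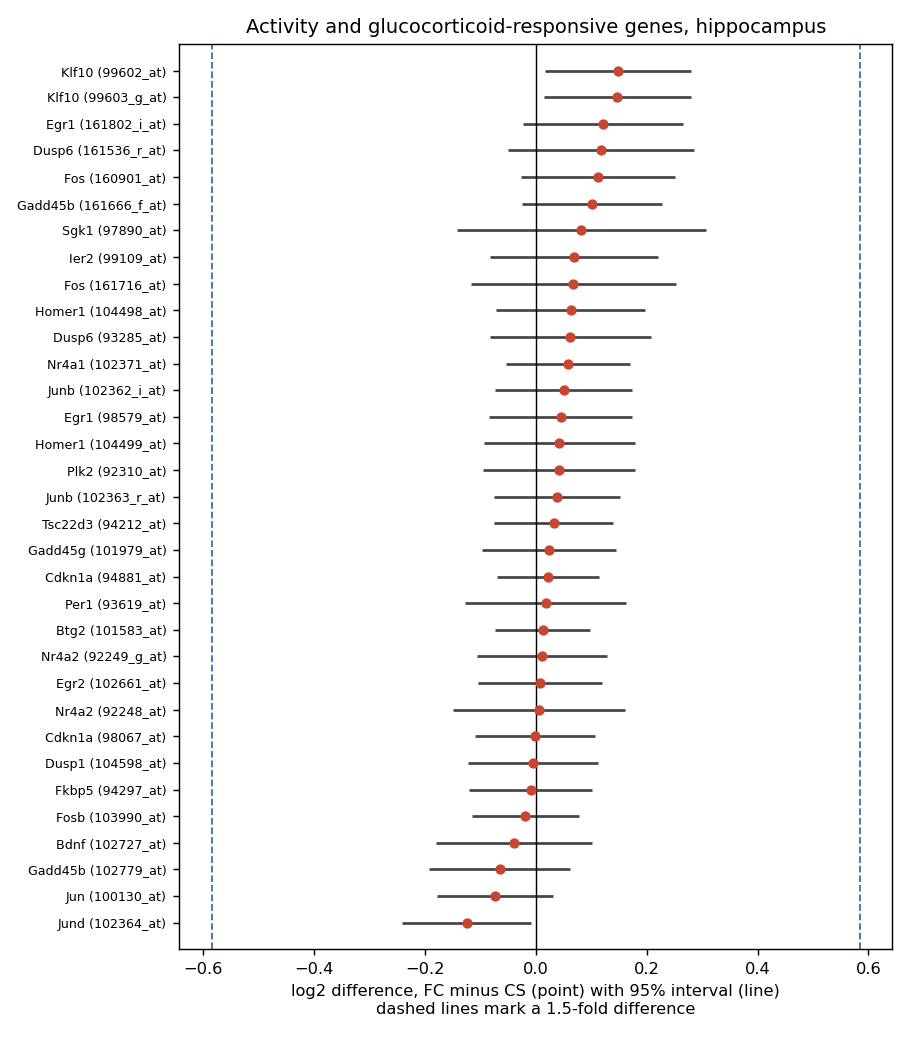
Log2 difference, FC minus CS, of every probe set of the 24 activity and glucocorticoid-responsive genes, with its 95% interval (horizontal line) from the limma fit of the 16 arrays. The dashed lines mark a 1.5-fold difference, and all 33 intervals lie between them. The intervals of Klf10 and Jund alone leave out 0, before adjustment over 12422 probe sets.

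The same genes were then set beside the amygdala, the region in which stimulus and shock signals meet, where 6 FC and 6 CS arrays were measured. The amygdala titles can be read as pairs of numbers, several of which are those of hippocampus arrays in the same arm, so an amygdala array may pool mice that also gave a hippocampus. The joint fit treated all arrays as independent, and its errors do not allow for such sharing. No probe set (0%) had a tissue difference, amygdala minus hippocampus, in the FC minus CS contrast of the joint limma fit, and 191 (1.54%) had an unadjusted p below 0.05. For Fos the amygdala difference was 0.38 ± 0.137 and the hippocampus difference 0.11 ± 0.066. The tissue difference was 0.28 ± 0.181, with a 95% interval from -0.09 to 0.64 (adjusted p = 1.00). Junb gave 0.23 ± 0.063 in amygdala and a tissue difference of 0.18 ± 0.083. Fosb gave 0.15 ± 0.044 in amygdala and a tissue difference of 0.17 ± 0.059 (unadjusted p = 0.0052, adjusted p = 1.00). Jund gave 0.10 ± 0.072 in amygdala against -0.12 in hippocampus, a tissue difference of 0.22 ± 0.095. Of the 24 genes on the brightest probe set, 18 were higher in FC in amygdala (median difference 0.10) and 16 in hippocampus (median 0.02). The tissue difference had an unadjusted p below 0.05 (joint limma fit) at 4 of these 24 genes, against 1.54% of all probe sets. No tissue difference passed adjustment for these genes, which does not show that the tissues acted alike.

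**Figure D3:**
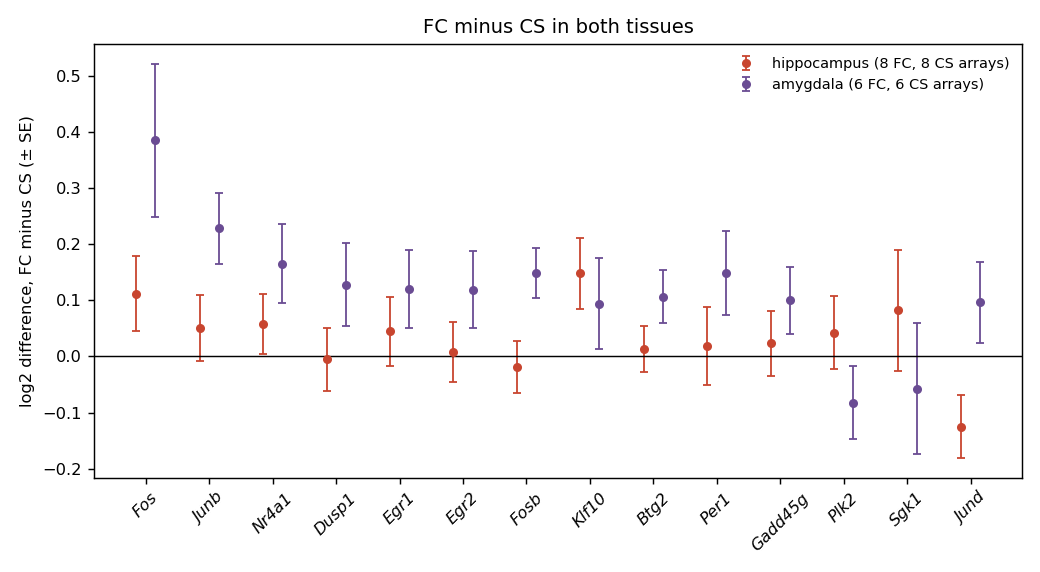
Log2 difference, FC minus CS, with its SE for 14 activity genes (brightest probe set) in hippocampus and amygdala, each with the processing batch as a block. Fos lies at 0.11 in hippocampus and at 0.38 in amygdala, and the test of that difference did not pass adjustment.

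Whether activity genes varied together from array to array inside an arm and batch was examined in the residuals of the 16 arrays, for Fos against 8 genes. Fos and Dusp1 gave Pearson r = 0.752 (within-batch permutation p adjusted over the 8 relations 0.0277) and Spearman rho = 0.474 (adjusted p = 0.276). Fos and Sgk1 gave r = 0.619 (adjusted permutation p = 0.0277) and rho = 0.579 (adjusted p = 0.163). Without CS 109 and CS 39, the arrays farthest from the median of Fos, r was 0.510 for Dusp1 (permutation p = 0.128) and 0.434 for Sgk1 (permutation p = 0.130). Neither relation passed without those arrays. Leaving out the extreme Fos values also narrows the range of Fos, which by itself tends to lower r, so the drop cannot decide how far the relations rest on them. Within the 8 arrays of batch 5 alone, which include CS 39, r was 0.901 for Dusp1 (exact permutation p = 0.0117) and 0.739 for Sgk1 (exact permutation p = 0.0064). Nr4a1 gave r = 0.510 (adjusted permutation p = 0.0904), and Junb, Egr1, Egr2, Per1 and Btg2 gave r from -0.452 to 0.402, none of which passed.

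The signalling and synaptic lists, fixed with earlier results of these data known, described the plasticity machinery. Over all 8251 genes, each by its brightest probe set, 51.1% were higher in FC and the median difference was 0.001. None of the lists held a called gene (background 0%). Of 40 immediate early genes with a probe set, 26 were higher and 14 lower, with a median of 0.02. Of 24 glucocorticoid-responsive genes, 9 were higher and 15 lower, with a median of -0.01. The ends of the first list were Klf10 at 0.15 and Myc at 0.13 on one side and Ptgs2, the inducible cyclooxygenase, at -0.14 ± 0.081 and Jund on the other.

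Among receptors, 9 of 13 glutamate receptor genes were higher in FC, with a median of 0.04. Grin2b, an NMDA receptor subunit, had the largest value, 0.15 ± 0.078, of which batch 4 gave 0.30, batch 5 0.03 and batch 6 0.21, and Grin2a gave 0.13 ± 0.080. Both rested on CS 105 and CS 109: without these arrays Grin2b gave 0.05 ± 0.058 and Grin2a 0.03 ± 0.056. The AMPA receptor gene Gria2 gave -0.07 ± 0.066 on its brightest probe set, -0.02 ± 0.065 without them, and from -0.15 to -0.02 on its 3 other probe sets. Of 13 GABA genes 8 were higher. Gad2 and Gad1, which encode the enzymes that make GABA, lay at opposite ends of that list: Gad2 at 0.17 ± 0.074 (unadjusted p = 0.032) and Gad1 at -0.11 ± 0.064. The Gad2 arrays ran from 5.45 to 5.92 in FC and from 5.06 to 5.76 in CS. Of 6 neurotrophin and receptor genes 5 were higher, led by the GDNF receptor Gfra1 at 0.17 ± 0.087, which was 0.05 ± 0.054 without CS 105 and CS 109.

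Among signalling enzymes, the cAMP, PKA and CREB list had 10 of 24 members higher (median -0.01), the calcium and calmodulin list 7 of 16 (median -0.02) and the ERK cascade 14 of 19 (median 0.03). The member of the ERK list with the largest difference was the kinase Braf at 0.09 ± 0.055 (0.05 ± 0.064 on its other probe set), and the adaptor Grb2 was at the other end at -0.09 ± 0.045. Gap43, a growth-cone protein that binds calmodulin, gave -0.16 ± 0.075 and was below 0 in all 3 batches (-0.10, -0.22 and -0.08). At the synapse, Dlg4, which encodes the scaffold PSD-95, gave the largest value of any member of the 26 lists, 0.26 ± 0.129, with 0.53 in batch 4, 0.18 in batch 5 and 0.00 in batch 6. It was 0.10 ± 0.066 without CS 105 and CS 109. Its paralogue Dlg1 gave -0.12 ± 0.049 (unadjusted p = 0.022). In the vesicle list the calcium sensor gene Syt1 gave 0.18 ± 0.245 and Syt4 -0.21 ± 0.130. Cry2, a repressor of the circadian clock, led 17 clock genes at 0.19 ± 0.091 and was 0.05 ± 0.054 without CS 105 and CS 109.

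Lists of cell state leaned weakly downward. Of 62 respiratory chain and ATP synthase genes 18 were higher and 44 lower, with a median of -0.02. Of 30 ribosomal protein genes 8 were higher and 22 lower, with a median of -0.02. These medians were -0.08 and -0.07 in batch 4 and 0.005 and 0.002 in batch 5, so the lean was not shared by the batches. After renewed quantile normalization the medians were -0.006 and -0.006, nearer to 0. Of 19 endoplasmic reticulum chaperones 12 were lower. Hspa5, the chaperone BiP, gave -0.20 ± 0.109, with -0.23 in batch 4, -0.34 in batch 5 and 0.28 in batch 6. The cytosolic chaperones gave 8 higher and 13 lower.

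Markers of cell types did not set the arms apart. Over 17 hippocampal neuron markers the mean level ranged from 7.26 to 7.46 in FC and from 7.23 to 7.50 in CS. Over 14 astrocyte markers it ranged from 9.09 to 9.26 and from 9.04 to 9.32, and 7 were higher and 7 lower. Slc1a2, the main glutamate transporter of astrocytes, gave 0.11 ± 0.052 and the receptor Fgfr3 0.10 ± 0.044 (unadjusted p = 0.042 and 0.039), and a much dimmer Fgfr3 probe set gave -0.07 ± 0.085. The 12 oligodendrocyte markers were split 6 and 6, and 9 of 14 microglial markers were lower, among them Aif1, a microglial actin-binding protein, at -0.12 ± 0.049. Of 20 vessel markers 10 were higher. Of 10 blood markers 8 were higher, with a median of 0.07, the highest of the 26 lists, and their mean level ranged from 6.27 to 6.49 in FC and from 6.21 to 6.43 in CS. The part of blood content in the other differences was not tested.

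**Figure D4:**
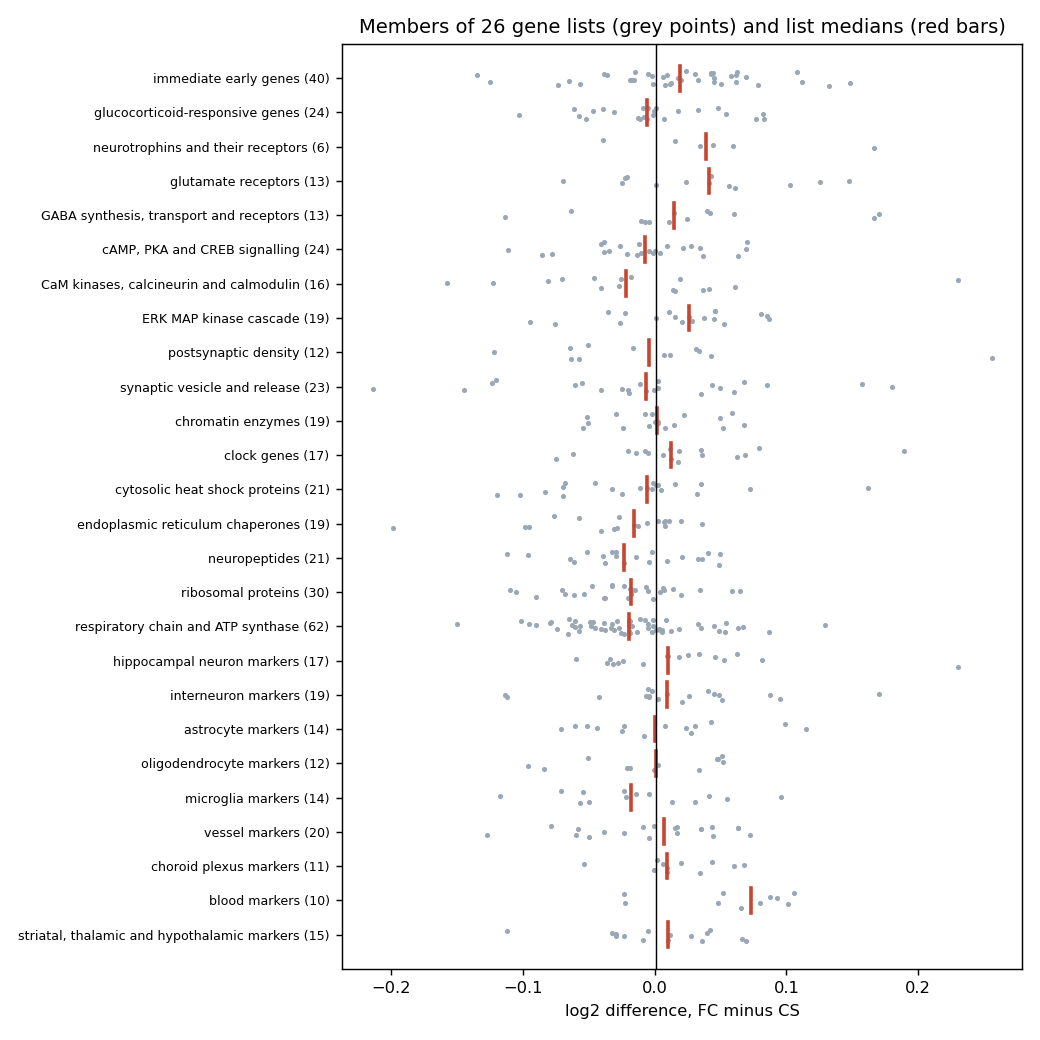
Log2 difference, FC minus CS, of each member (grey point, brightest probe set) of 26 gene lists, with the list median (red bar) and the number of members with a probe set in brackets. The vertical line marks the median of all 8251 genes, 0.001, and all list medians lie between -0.02 and 0.07.

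The probe sets with the smallest p-values were faint or modest in size. The 10 genes lowest in p among those higher in FC were Vcp, Ebp, Crkl, Myc, Mycn, Arg2, Mapre1, Sele, Perp and Shh, with differences from 0.13 to 0.18. The Vcp probe set had the smallest p of all that named a gene (unadjusted p = 0.0024), with levels from 2.57 to 2.94 in FC and 2.53 to 2.72 in CS, in the lowest 0.684 percent of all probe sets by mean level. The 3 other Vcp probe sets gave -0.06 ± 0.096, 0.02 ± 0.042 and -0.01 ± 0.048, so the gene's probe sets did not share a difference. Ebp, an isomerase of cholesterol synthesis, ran from 5.59 to 5.78 in FC and from 5.34 to 5.71 in CS and differed by 0.14 ± 0.044. Myc and Mycn, related growth-regulating factors, gave 0.13 ± 0.045 and 0.14 ± 0.049 and were higher in FC in each batch. Crkl, an adaptor of tyrosine kinase signalling, gave 0.16 ± 0.055, with 0.35 in batch 4 and 0.05 in batch 5, and its other probe set gave 0.02 ± 0.062. The other probe sets of Arg2 and Mycn gave 0.11 ± 0.060 and 0.05 ± 0.048, and those of Mapre1 gave -0.02 ± 0.050 and 0.02 ± 0.050.

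Among those lower in FC the smallest p-values belonged to Lasp1, Prl7a1, Jak2, Nell2, Klk1b8, Gle1, Mprip, Nop56, Papss2 and Polr1a, with differences from -0.20 to -0.10. Lasp1, an actin-binding protein of synapses and focal contacts, ran from 8.07 to 8.48 in FC and from 8.27 to 8.68 in CS, and differed by -0.14 ± 0.048, with -0.13, -0.14 and -0.17 in batches 4, 5 and 6. Its other probe set had the opposite sign, 0.16 ± 0.096, and 0.03 ± 0.059 without CS 105 and CS 109. Jak2, a cytokine receptor kinase, gave -0.10 ± 0.038, with -0.15, -0.09 and -0.08, and -0.02 ± 0.056 on its other probe set. Nell2, a secreted neuronal glycoprotein, gave -0.14 ± 0.054. The other probe set of Klk1b8 gave -0.14 ± 0.067, while those of Mprip, Nop56 and Polr1a gave 0.02 ± 0.052, -0.05 ± 0.076 and 0.01 ± 0.047. These genes were picked for their p, so their evenness over batches is a description.

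The spread inside arms and batches was far larger than any arm difference for a small group of transcripts. Ttr, transthyretin, which choroid plexus secretes into cerebrospinal fluid, had the largest residual SD, 1.21. Its level was 9.23 in CS 109, 8.62 in FC 35, 7.89 in CS 105 and 7.81 in FC 79, while the other 12 arrays lay between 5.71 and 6.24. The FC minus CS difference was -0.05 ± 0.493, made of -1.81 in batch 4, 0.59 in batch 5 and 1.18 in batch 6, and it was 0.56 ± 0.366 without CS 105 and CS 109. Kl, another choroid plexus gene, was highest in CS 109 (7.27) and FC 35 (6.82) as well, and its difference was 0.02 ± 0.188 with all arrays and 0.28 ± 0.112 without CS 105 and CS 109. The mean of 11 choroid plexus markers ranged from 5.81 to 6.37 in FC and from 5.82 to 6.65 in CS.

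A second group was low in CS 105 and CS 109 within batch 4. Arf3, a small GTPase of the Golgi, was at 6.51 and 6.59 in these arrays and at 8.82 in CS 85, the remaining CS array of batch 4, and the FC arrays of that batch were at 8.69 and 8.76. Camk2a, the kinase subunit most tied to synaptic plasticity, was at 6.46 and 6.13 in CS 105 and CS 109 against 8.35 in CS 85, on the dimmer of its 2 probe sets. Kif5a, a neuronal kinesin, and Ywhag, a 14-3-3 protein, had the same arrangement within batch 4. Map2 and Syt1 were low in CS 109, at 5.60 and 7.61, and not in CS 105, at 8.02 and 9.90. NH 100, also of batch 4, was low at all 6 of these transcripts, with 5.81 for Arf3 and 4.68 for Camk2a.

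The FC minus CS differences of these transcripts rested on those 2 arrays. Arf3 gave 0.40 ± 0.282 with all arrays and -0.06 ± 0.100 without them. Camk2a gave 0.33 ± 0.254 and then -0.10 ± 0.062, with 0.23 ± 0.179 and then -0.06 ± 0.067 on the brighter probe set. Kif5a gave 0.30 ± 0.264 and then -0.08 ± 0.160, and Syt1 0.18 ± 0.245 and then -0.05 ± 0.089. Map2 gave 0.18 ± 0.289 and then -0.11 ± 0.138, and Ywhag 0.23 ± 0.202 and then -0.08 ± 0.094. Other probe sets of these genes were steadier: the other 2 of Arf3 gave 0.06 ± 0.074 and 0.01 ± 0.050 with all arrays, and the second of Ywhag gave -0.04 ± 0.054, although the second of Kif5a gave 0.24 ± 0.103 and 0.11 ± 0.077 without them. Of the 14 probe sets whose interval reached past 1.5-fold, 7 belonged to Ttr, Map2, Arf3, Kif5a, Syt1, Ywhag and Psap, 2 to Camk2a, and 5 named no single gene. Psap, the saposin precursor, was named after its value was seen.

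**Figure D5:**
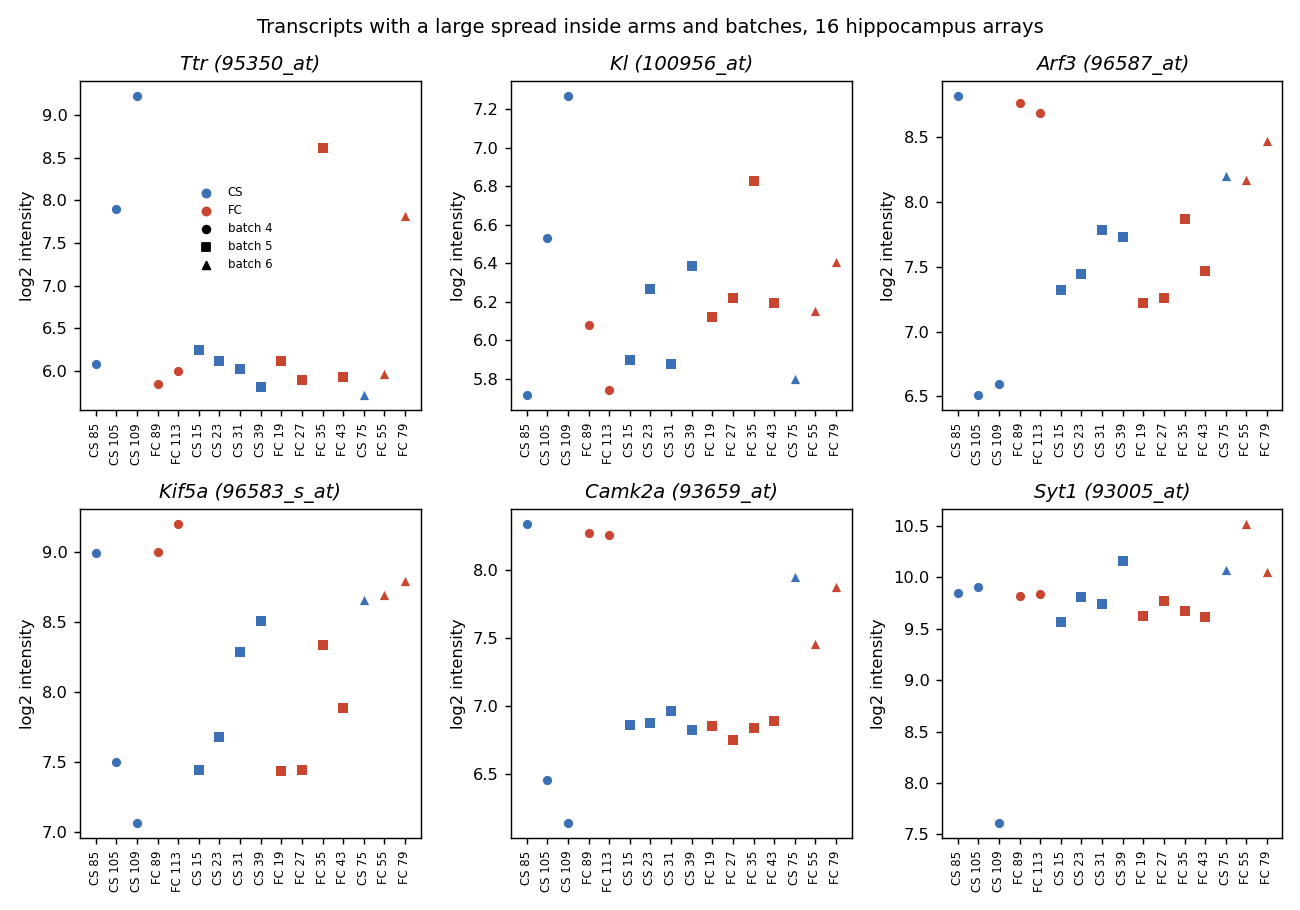
Log2 intensity of 6 transcripts with a large residual spread in each of the 16 arrays, ordered by batch and arm (colour for the arm, marker shape for the batch). CS 105 and CS 109 are the lowest of the 16 at Arf3 and Camk2a and the lowest of batch 4 at Kif5a, CS 109 is the lowest at Syt1, and Ttr is high in CS 109, FC 35, CS 105 and FC 79.

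A sign of RNA length moved with these arrays at Gapdh, and only in part at the other control transcripts. The 3′ minus 5′ difference of the Gapdh control probe sets, which grows as RNA or cDNA shortens, was 0.376 in CS 105 and 0.360 in CS 109, and between 0.03 and 0.16 in the other 14. NH 100 was at 0.485. For actin CS 109 was at 1.106, but CS 105 at 0.962 lay below FC 27 at 0.993. For pyruvate carboxylase CS 109 was at 2.255 and CS 105 at 1.932. The transferrin receptor went the other way in CS 109 (0.962, the lowest of the 16) and in NH 100 (0.755). The part of RNA length in the low neuronal transcripts was not tested. Between the arms this measure did not differ beyond its spread: for actin FC minus CS was -0.151 (exact within-batch permutation p = 0.114, adjusted over 4 control transcripts 0.455), for Gapdh -0.044 (exact permutation p = 0.371), for pyruvate carboxylase -0.082 (exact permutation p = 0.371) and for the transferrin receptor -0.014 (exact permutation p = 0.839).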

How the data were processed

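Per the submitters' processing notes, the authors made the deposited intensity values with RMA, which corrects background, equalizes array distributions and summarizes probe sets; its version is not given in the sources used here. A shift common to nearly all transcripts is removed by this step. The deposited intensity is linear, and its log2 was taken with nothing added. Of 12488 probe sets 66 controls were left out; 10833 of the rest name 1 gene in the platform annotation (10817 with their gene ID in RefSeq's GRCm38.p6 table), 396 several and 1193 none. Arc and Egr3 are not named by a probe set there. The 8 FC and 8 CS arrays were fitted with limma 3.58.1 in R 4.3.3 (arm and batch, two-sided, Benjamini-Hochberg, threshold 0.05); NH values came from a fit of 26 hippocampus arrays, tissue differences from 1 of all 48, with tissues apparently normalized separately. limma was tested on simulated data. Permutations kept arrays within batches.

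The arrays, the 26 lists (742 entries) and the rules were chosen with earlier results of these data known. Named are a set of 25 activity genes whatever their value, the 10 smallest p in each direction, the 2 members at each end of every list and the 12 largest residual SDs. The alternatives were other normalizations, filters, offsets, covariates, batches and arrays left out.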

Additional observations from a re-analysis of the deposited data

Results flagged for a closer look

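In 171 groups of 8 or 10 values tested for a single value far from the rest, 11 stood out, and about 1 in 20 would by chance. Batch differences were not taken out of the values tested. In CS, CS 109 was lowest for Syt1 (7.61, nearest 9.56) and Sh3gl2, an endocytic protein (5.32, nearest 7.00), and highest for Egr2 (5.62, nearest 5.44). CS 31 was highest for Btg2 (8.56, nearest 8.45), and CS 105 was lowest for the second Junb probe set (7.62, nearest 7.82). In FC, FC 113 was lowest for Dusp1 (7.56, nearest 7.82) and for the pyruvate carboxylase 3′ minus 5′ difference (1.54, nearest 1.93). FC 79 was highest for Per1 (7.18, nearest 7.06), and FC 19 was lowest for Gadd45b (6.60, nearest 6.79). Erdr1 had a low array in each arm, FC 19 (7.82, nearest 8.92) and CS 85 (8.36, nearest 9.18).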

How the results depend on the processing

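No paired analysis was run, and no title number occurs in both arms. Several CS numbers have a near FC number in the same batch, such as CS 15 and FC 19, or CS 109 and FC 113. Whether such arrays were matched was not tested. The count of called probe sets was 0 under every alternative that was run for FC against CS. The smallest adjusted p (limma) was 0.0611, for the difference within batch 4. The count with an unadjusted p below 0.05, 175, was 70 without the batch term, 271 with array weights, 381 with the first principal component as a covariate, and 381, 74 and 705 in batches 4, 5 and 6 alone. With single arrays left out it ranged from 130 to 386, the highest without FC 27. Fos in CS minus NH ranged from 0.786 (without NH 100) to 1.15 with single arrays left out and kept its direction; without NH 78 it was 0.891. Fos in FC minus NH ranged from 0.911 to 1.25, with a largest adjusted p of 0.0106. The Spearman values of Fos with Dusp1 and Sgk1 were 0.474 and 0.579, and without CS 109 and CS 39 their Pearson values were 0.510 and 0.434. Of 187 alternatives for these main results 174 left direction and call as they were, 9 moved a value and 4 ended a call. Counted among the 9 were the Pearson values of Fos with Dusp1 and Sgk1 without CS 109 and CS 39. With permutation p of 0.128 and 0.130, these relations no longer passed either. For single named probe sets, 6953 of 7100 stayed within 1 residual SD of single arrays around arm and batch means. That limit is wide, and the count says little about steadiness. Arf3 stayed inside it while going from 0.40 to -0.06 without CS 105 and CS 109. The cause of the changes was not tested. Faint probe sets limit what can be read: adding 16 before log2 moved Myc, Prl7a1, Sele and Vcp.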
